A study of Mus musculus with 10 samples.

Results

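The bone morphogenetic protein (BMP) and Id genes described here are 10 mouse genes. They are 4 secreted ligands (Bmp4, Bmp2, Bmp7 and Bmp8b), the receptor Bmpr1a, the inhibitor Smad6, and the transcriptional regulators Id1, Id2, Id3 and Id4. They were listed by name and matched through Ensembl identifiers to GENCODE M21 symbols. All 10 were found among the 30460 genes of the deposited files. RNA was sequenced in 10 libraries of 4 genotypes, all from C57BL/6 embryonic stem cells, a cultured cell that can form every tissue of the embryo. There were 3 libraries of wild type cells, 3 labelled Mga-/-, 2 labelled L3mbtl2-/- and 2 labelled Pcgf6-/-. No treatment, time or culture medium is given in the sources used here, nor whether replicates are separate clones or cultures, so the spread behind each p-value may be only technical.

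BMP ligands are dimers that bring together type I and type II receptor kinases at the cell surface. The type I receptor, of which BMPR1A is one, phosphorylates SMAD1 and SMAD5, which join SMAD4 and act on genes in the nucleus. Id1, Id2 and Id3 are textbook targets of this pathway, and Id proteins bind E proteins and keep them off DNA. SMAD6 and SMAD7 are inhibitors that the pathway itself induces. In mouse embryonic stem cells, BMP4 and Id proteins are known for helping to hold cells in self-renewal together with LIF. The 3 deleted genes encode subunits of the Polycomb complex PRC1.6, in which MGA pairs with MAX, a combination that binds the E-box CACGTG.

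The sequences upstream of Bmp4 and Bmp8b are shown because Bmp4 was higher in each knockout than in wild type and Bmp8b had its lowest levels in the knockouts. They are the 250 bases before the RefSeq transcription start (GRCm38.p6), read 5′ to 3′ along the gene. Capitals mark matches, on either strand, to CACGTG or to the SMAD1/5 box GGAGCC. Neither window shown matched the SMAD1/5 box GGCGCC. The Bmp4 window is chr14:46390670-46390919 on the minus strand and that of Bmp8b is chr4:123104911-123105160 on the plus strand.
Bmp4: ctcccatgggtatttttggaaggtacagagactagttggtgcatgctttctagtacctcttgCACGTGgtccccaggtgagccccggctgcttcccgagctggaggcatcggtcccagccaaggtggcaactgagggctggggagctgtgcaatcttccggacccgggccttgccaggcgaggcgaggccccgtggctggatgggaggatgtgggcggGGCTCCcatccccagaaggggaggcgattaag
Bmp8b: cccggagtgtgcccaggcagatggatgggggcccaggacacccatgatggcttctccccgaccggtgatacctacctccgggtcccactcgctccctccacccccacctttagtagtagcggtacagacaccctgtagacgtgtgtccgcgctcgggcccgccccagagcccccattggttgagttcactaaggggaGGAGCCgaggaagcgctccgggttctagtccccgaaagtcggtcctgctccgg
The Bmp4 window holds 1 CACGTG, whose first base lies 188 bases before the start, and 1 match to GGAGCC, on the opposite strand, at 32 bases. The Bmp8b window holds 1 GGAGCC at 53 bases. RefSeq windows were matched for 7 of the 10 genes (Bmp4, Bmp8b, Bmpr1a, Smad6, Id2, Id3 and Id4). Of these 7, 1 held CACGTG, against 6.02% of all 32851 windows of the table. GGCGCC was in 3 (Bmpr1a, Id2 and Id4), against 9.59% of all windows, and GGAGCC was in 6, against 26.0%. The composite BMP response element (GGNGCC, 5 of any base, then GNCT) was in 0 of the 7 and in 1.63% of all windows. GGAGCC and GGCGCC are both forms of the first half-site of that element, so these searches overlap. The windows of these genes were rich in G and C (63.2% in Bmp4 and 65.2% in Bmp8b, against a median of 52.4% over all windows). A match is a description of the letters, not a binding site.

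Levels are given in FPKM, fragments per kilobase of gene scaled to the depth of the library. That depth, recovered from the steps of the values, was 19.4 M to 26.7 M reads, at which 1 read on a gene of 2 kb is worth 0.0187 to 0.0258 FPKM. The 8 embryonic stem cell markers examined (among them Pou5f1, Sox2 and Nanog) were above 1 FPKM in every library. L3mbtl2 was at 3.72 and 3.49 FPKM in its knockout against 20.2 ± 0.382 FPKM in wild type (SD, n = 3), and Pcgf6 was at 9.56 and 9.82 FPKM in its knockout against 28.9 ± 1.13 FPKM. The 3 libraries labelled Mga knockout had Mga at 8.03, 19.6 and 11.2 FPKM against a wild type mean of 18.5 ± 1.30 FPKM. The library labelled Mga knockout replicate 2 thus had Mga RNA near the wild type level. That RNA level alone does not show whether its label is wrong. Directions drawn from this group are those of the libraries so labelled. Its 3 libraries also spread more: the median SD of a gene on the log2 scale was 0.338 in it, and 0.0864, 0.0637 and 0.0667 in the wild type, L3mbtl2 and Pcgf6 knockout groups. One spread was estimated from all 10 libraries. Some calls change when each group has its own spread, in the tighter groups and in the Mga group. Those changes are given below for the 10 genes and, against wild type, for the other pathway genes with the smallest adjusted p. No result with a spread for each group is given for Bmp6, Bmp8a, Nog, Fstl3, Msx1, Msx2 and Hey1. Whether their calls would change is therefore not known. Over all tested genes, the count for Mga knockout against wild type went from 6210 to 3709 with a spread for each group. Genes of other cell types were present. Summed over 10 fibroblast markers, replicate 1 labelled Mga knockout stood at 405 FPKM against 92.6 to 142 FPKM in the other 9 libraries. The 10 macrophage markers summed to 153 to 158 FPKM in wild type, 8.91 to 31.9 FPKM in libraries labelled Mga knockout, 420 to 437 FPKM in L3mbtl2 knockout and 209 to 210 FPKM in Pcgf6 knockout. Most of the sum was Cd68 in libraries labelled Mga knockout and Lyz2 in the other groups. Cd68 was at 36.0 to 38.5 FPKM in wild type, 36.3 and 30.4 FPKM in L3mbtl2 knockout and 22.0 and 20.5 FPKM in Pcgf6 knockout. Every marker but Cd68 was higher in both L3mbtl2 knockout libraries than in wild type. No marker of these lists was at 0 in all libraries of a group.

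**Figure D1:**
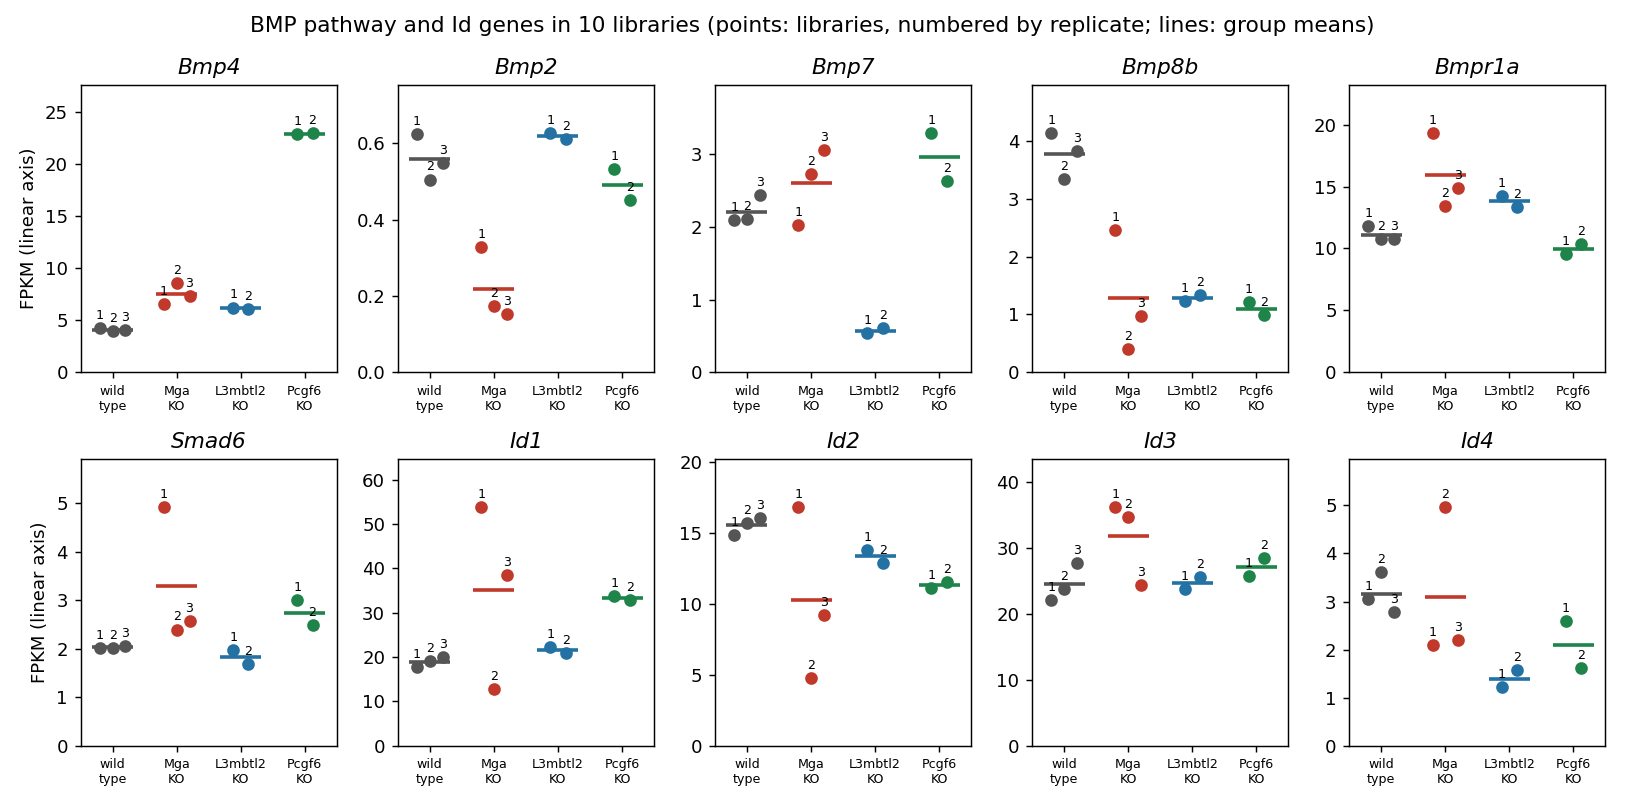
Level of each gene in FPKM (vertical axes, linear, starting at 0 and scaled per gene) in every library, by genotype; points are libraries numbered by replicate and lines are group means. Bmp4 stands at 22.8 and 23.0 FPKM in Pcgf6 knockout, above the 8 other libraries, and the 3 libraries labelled Mga knockout lie far apart for Id1 and Id2.

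All 10 genes passed the filter on low values (at least 0.5 FPKM in at least 2 libraries) and were tested with limma on log2(FPKM + 0.1), with Benjamini-Hochberg adjustment over 15731 genes. With adjusted p under 0.05 against wild type, 4 of the 10 changed in libraries labelled Mga knockout (Bmp4 and Bmpr1a higher, Bmp2 and Bmp8b lower), where 39.5% of all tested genes were called. In L3mbtl2 knockout 3 changed (Bmp4 higher, Bmp7 and Id4 lower), where 40% of all tested genes were called. In Pcgf6 knockout 1 changed (Bmp4, higher), where 10.1% were called. These counts lie near those backgrounds. By direction, 22.8% of all tested genes were higher and 16.7% lower in the first comparison, 23.4% and 16.7% in the second, and 5.45% and 4.62% in the third. Libraries did not overlap wild type for 5, 8 and 8 of the 10 genes, against 48.7%, 79.5% and 65.5% of all tested genes. The median log2 fold change of the 10 genes was 0.28, -0.07 and -0.00 in the 3 comparisons, in that order, against 0.10, 0.13 and 0.04 over all tested genes. The 3 comparisons share the wild type libraries. Without the library labelled Mga knockout replicate 2, the count in that group was 6 of 10, with Smad6 and Id1 added, and 55.4% of all tested genes were called.

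**Figure D2:**
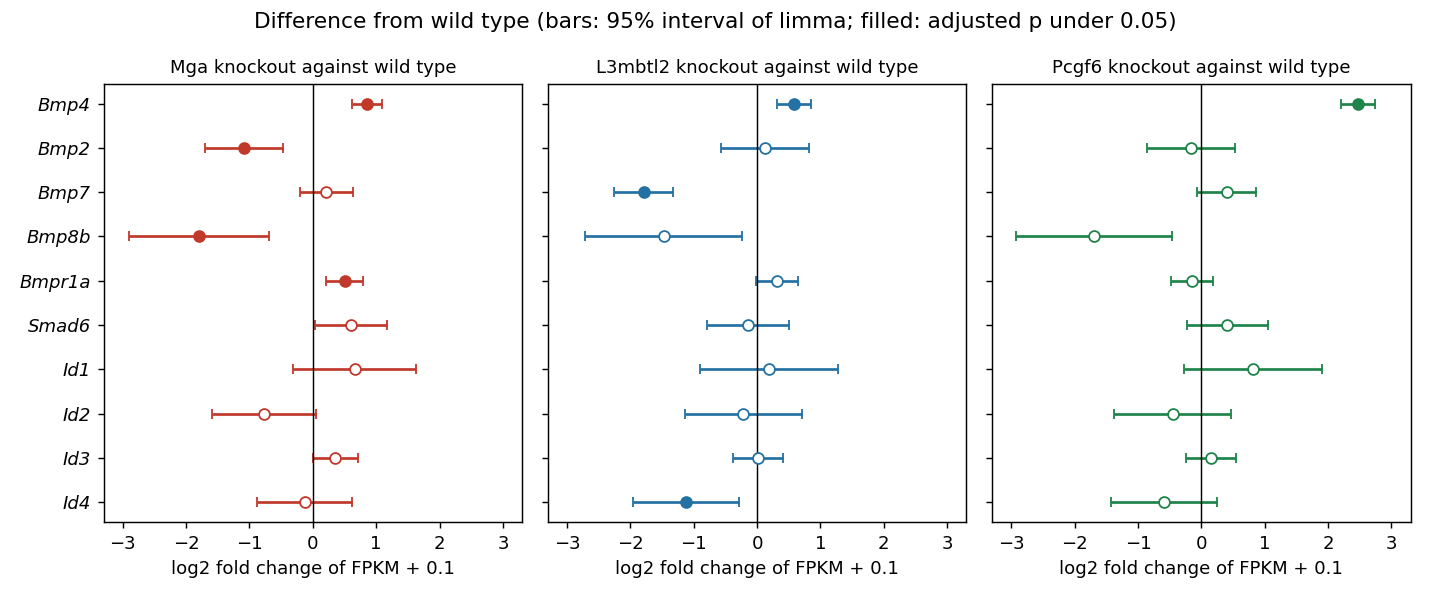
Log2 fold change of FPKM + 0.1 against wild type (horizontal axis) for the 10 genes in each knockout; points are limma estimates, bars their 95% intervals, and filled points have an adjusted p under 0.05. The interval of Bmp4 lies above 0 in all 3 panels, and at 2.2 to 2.74 in Pcgf6 knockout.

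Bmp4, the BMP ligand added to serum-free stem cell cultures, was the ligand of the 4 with the highest mean level over the 10 libraries. Its gene (ENSMUSG00000021835) lies on chromosome 14, 46383520 to 46390669, minus strand, GRCm38. Its level was 4.27, 3.90 and 4.01 FPKM in wild type, 6.56, 8.50 and 7.30 FPKM in libraries labelled Mga knockout, 6.19 and 6.09 FPKM in L3mbtl2 knockout and 22.8 and 23.0 FPKM in Pcgf6 knockout. Every knockout library lay above every wild type library, and the Pcgf6 knockout libraries lay above all others. These levels rest on 227 to 1179 reads per library. In Pcgf6 knockout Bmp4 rose 5.53-fold, a log2 fold change of 2.47 ± 0.12 (SE, limma adjusted p = 2.8e-05). In libraries labelled Mga knockout it rose 1.81-fold (log2 0.85 ± 0.11, adjusted p = 0.00058). In L3mbtl2 knockout it rose 1.5-fold (log2 0.59 ± 0.12, adjusted p = 0.00535). The difference between knockouts was tested directly: Bmp4 was 3.06-fold lower in libraries labelled Mga knockout (adjusted p = 9.98e-05) and 3.68-fold lower in L3mbtl2 knockout (adjusted p = 0.000125) than in Pcgf6 knockout. Between Mga and L3mbtl2 knockout the difference was 0.27 ± 0.12 (log2, 95% interval -0.00 to 0.54, adjusted p = 0.141), and 0.35 (adjusted p = 0.0203) without Mga knockout replicate 1. The order of levels was therefore Pcgf6 knockout, then Mga and L3mbtl2 knockout without a called difference, then wild type.

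The median gene of chromosome 14 was itself shifted against wild type, by 0.23 in libraries labelled Mga knockout, 0.27 in L3mbtl2 knockout and 0.08 in Pcgf6 knockout (log2). Less that median, the Bmp4 difference in L3mbtl2 knockout was 0.32 (adjusted p = 0.0647) and was no longer called. In the other groups Bmp4 stayed called in all 20 alternative analyses. In bulk RNA, more cells that express a gene and more RNA per cell cannot be told apart.

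Bmp8b, a ligand best known from germ cell development, was near Bmp4 in wild type and lower in the knockouts. Its gene (ENSMUSG00000002384) lies on chromosome 4, 123105165 to 123132099, plus strand. Its level was 4.15, 3.36 and 3.83 FPKM in wild type, 2.46, 0.40 and 0.97 FPKM in libraries labelled Mga knockout, 1.24 and 1.34 FPKM in L3mbtl2 knockout and 1.21 and 0.98 FPKM in Pcgf6 knockout. All 7 knockout libraries lay below all 3 wild type libraries. In libraries labelled Mga knockout it fell 3.47-fold (log2 -1.80 ± 0.48, adjusted p = 0.0188). That call was lost without wild type replicate 1 (adjusted p = 0.0610), wild type replicate 3 (0.0569) or Mga knockout replicate 3 (0.0525), and with only those 6 libraries in the fit (0.0517). The difference was -2.40 (adjusted p = 0.000722) without Mga knockout replicate 1. It was -1.23 (adjusted p = 0.0148) without replicate 2, whose Mga RNA was near the wild type level. In L3mbtl2 knockout the difference was -1.48 ± 0.54 (adjusted p = 0.0577) and in Pcgf6 knockout -1.70 ± 0.54 (adjusted p = 0.0832), neither past the threshold. With a spread for each group the adjusted p was 4.72e-05 and 6.74e-05 in these 2 comparisons. No difference of Bmp8b between knockouts was called, and the 95% interval between L3mbtl2 and Pcgf6 knockout was -1.13 to 1.57. The 8 trophoblast markers also had lower sums in the knockouts: 377 to 390 FPKM in wild type against 71.4 to 202, 35.9 to 37.6 and 85.5 to 86.5 FPKM in Mga, L3mbtl2 and Pcgf6 knockout. Most of the wild type sum was Krt8 (172 to 177 FPKM) and Krt18 (149 to 157 FPKM), both lower in every knockout library. Eomes was higher in libraries labelled Mga knockout (10.2, 4.85 and 7.38 FPKM against 3.41 to 3.99 FPKM in wild type). In Pcgf6 knockout Eomes was lower (2.56 and 2.12 FPKM). Tfap2c stood at 30.2 and 31.1 FPKM there against 30.3 to 32.2 FPKM in wild type, and Ascl2 at 4.81 and 5.35 against 3.81 to 5.81 FPKM. Hand1 was at 15.0 to 16.7 FPKM in wild type and 15.1, 0.993 and 3.11 FPKM in libraries labelled Mga knockout. It was at 1.71 and 2.59 FPKM in L3mbtl2 knockout and 2.69 and 2.25 FPKM in Pcgf6 knockout. In L3mbtl2 knockout Eomes and Tfap2c were both lower. The part of these markers in the Bmp8b difference was not tested. Bmp8b shares 133 exon bases with Ppie on the other strand, which stood at 14.8 to 20.2 FPKM. It shares 339 with the predicted gene Gm17244, also on the other strand and at 0.0121 to 0.332 FPKM, and has a near copy in Bmp8a, so its reads are less certain than those of the other ligands. Bmp8a, named after its values were seen, was at 0.974, 0.918 and 1.39 FPKM in wild type and 3.29, 1.44 and 1.68 FPKM in libraries labelled Mga knockout. It was at 1.91 and 1.93 FPKM in L3mbtl2 knockout and 1.06 and 0.773 FPKM in Pcgf6 knockout. Its part in the Bmp8b difference was not tested. Of the other genes, Bmp4, Bmpr1a and Id4 share exon bases with genes on the other strand that reached at most 0.14, 0.177 and 0.0724 FPKM.

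Bmp7, a ligand of kidney and eye development, lies on chromosome 2 (ENSMUSG00000008999, 172868012 to 172940321). It was at 2.09, 2.10 and 2.44 FPKM in wild type, 2.03, 2.73 and 3.07 FPKM in libraries labelled Mga knockout, 0.53 and 0.60 FPKM in L3mbtl2 knockout and 3.3 and 2.63 FPKM in Pcgf6 knockout. The L3mbtl2 knockout libraries lay below all others. There it fell 3.45-fold against wild type (log2 -1.79 ± 0.21, adjusted p = 0.000436), a call that stood in all 20 alternative analyses. It was also lower in L3mbtl2 than in Mga knockout (4.0-fold, adjusted p = 0.000411) and than in Pcgf6 knockout (4.56-fold, adjusted p = 0.000561). Against wild type Bmp7 differed by 0.21 ± 0.18 in libraries labelled Mga knockout (adjusted p = 0.388) and by 0.40 ± 0.21 in Pcgf6 knockout (adjusted p = 0.257). With a spread for each group the latter had an adjusted p of 0.0229. The macrophage sum was highest in L3mbtl2 knockout, where Bmp7 was lowest, and its part in the result was not tested.

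Bmp2, a close relative of Bmp4, had the lowest mean level of the 10 genes over the 10 libraries, from 13 to 53 reads in each (ENSMUSG00000027358, chromosome 2, 133552159 to 133562885). Wild type libraries had 0.62, 0.51 and 0.55 FPKM, and those labelled Mga knockout had 0.33, 0.17 and 0.15 FPKM. It was at 0.63 and 0.61 FPKM in L3mbtl2 knockout and at 0.53 and 0.45 FPKM in Pcgf6 knockout. The 3 libraries labelled Mga knockout lay below the other 7. Against wild type it fell 2.12-fold there (log2 -1.09 ± 0.27, adjusted p = 0.0139). It was also lower there than in L3mbtl2 knockout (log2 -1.22 ± 0.30, adjusted p = 0.0222), whereas against Pcgf6 knockout the difference was -0.93 ± 0.30 (adjusted p = 0.0576). The call against wild type was lost without wild type replicate 1 (adjusted p = 0.0544), with a spread for each group (0.108) and with only those 2 groups in the fit (0.0640). The call against L3mbtl2 knockout was lost without either L3mbtl2 knockout library (adjusted p = 0.147 and 0.134), with a spread for each group (0.102) and with only those 2 groups (0.192).

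Bmp4 made up a larger share of the summed level of the 4 ligands in each knockout. It was 38.3% ± 1.27 of the sum in wild type (SD, n = 3), 64.4% ± 7.19 in libraries labelled Mga knockout (n = 3), 71.2% ± 1.17 in L3mbtl2 knockout (n = 2) and 83.4% ± 2.15 in Pcgf6 knockout (n = 2). The sum itself was 10.6 ± 0.66 FPKM in wild type, 11.6 ± 0.228, 8.62 ± 0.04 and 27.4 ± 0.59 FPKM in Mga, L3mbtl2 and Pcgf6 knockout. Bmp8b made up 35.5% ± 1.64 in wild type and 3.99% ± 0.493 in Pcgf6 knockout. These shares are descriptions with no test of their own.

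**Figure D3:**
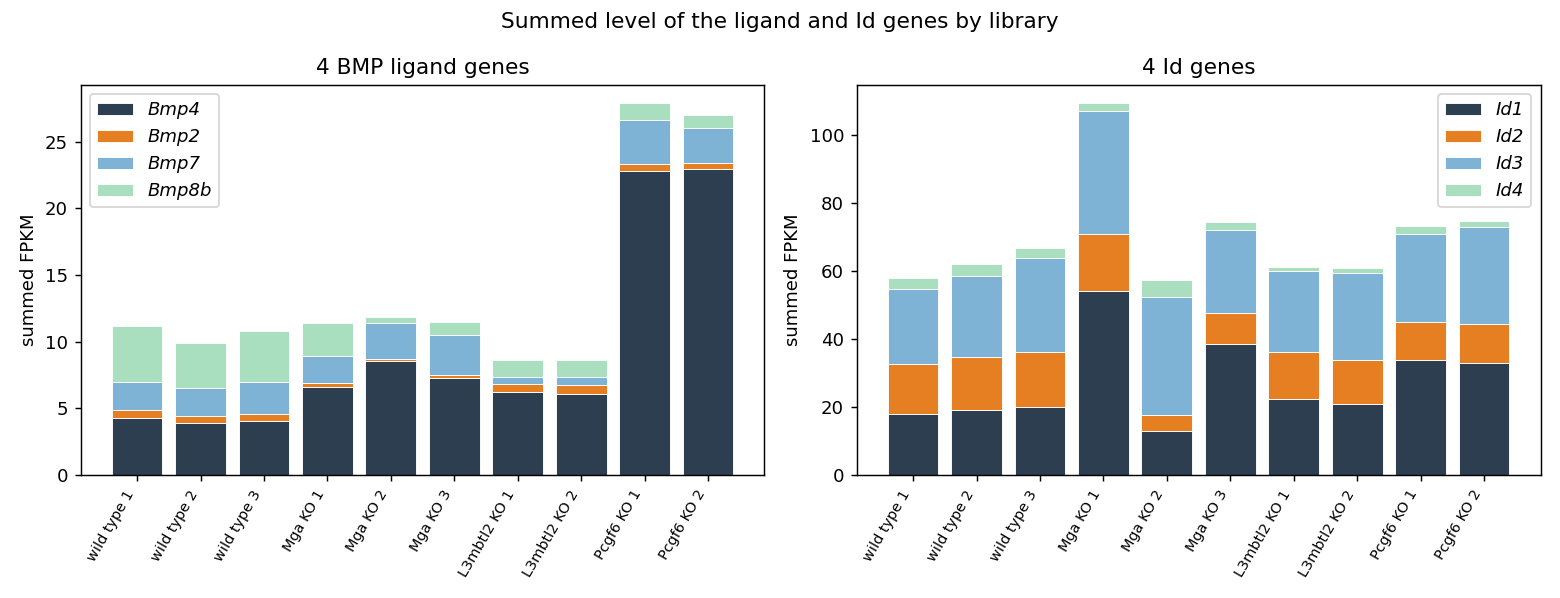
Summed FPKM of the 4 ligand genes (left) and of the 4 Id genes (right) in each library, as stacked bars from 0, coloured by gene. The ligand sums of Pcgf6 knockout, 27.9 and 27 FPKM, are mostly Bmp4, and the Id sum of Mga knockout replicate 1, 109 FPKM, stands above the others.

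Bmpr1a, the type I receptor that binds BMP2 and BMP4, was the most abundant of the ligand, receptor and inhibitor genes on average (ENSMUSG00000021796, chromosome 14, 34410734 to 34503341, minus strand). It was at 11.8, 10.8 and 10.8 FPKM in wild type, 19.4, 13.5 and 14.9 FPKM in libraries labelled Mga knockout, 14.3 and 13.3 FPKM in L3mbtl2 knockout and 9.58 and 10.4 FPKM in Pcgf6 knockout. Its values in Mga and L3mbtl2 knockout lay above all of wild type and Pcgf6 knockout. In libraries labelled Mga knockout it rose 1.41-fold against wild type (log2 0.50 ± 0.13, adjusted p = 0.0162), and it was 1.57-fold higher there than in Pcgf6 knockout (adjusted p = 0.0154). Against wild type the difference was 0.31 ± 0.15 in L3mbtl2 knockout (adjusted p = 0.117, and 0.00156 with a spread for each group) and -0.15 ± 0.15 in Pcgf6 knockout (adjusted p = 0.574). Less the median of chromosome 14, the difference in L3mbtl2 knockout was 0.04 (adjusted p = 0.837). Without replicate 1, the library with the highest fibroblast sum, the difference in libraries labelled Mga knockout was 0.35 (adjusted p = 0.0101). Less the chromosome 14 median it was 0.27 (adjusted p = 0.142) and not called. Its call was also lost without wild type replicate 2 or 3 (adjusted p = 0.0581 and 0.0573) and with only those 2 groups (0.0515). The call against Pcgf6 knockout was lost without either Pcgf6 knockout library (adjusted p = 0.117 and 0.0830) and with only those 2 groups (0.141).

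Smad6, the inhibitory SMAD most specific to BMP receptors, did not pass the threshold in any comparison (ENSMUSG00000036867, chromosome 9, 63953076 to 64022059). It was at 2.01, 2.01 and 2.06 FPKM in wild type, 4.93, 2.40 and 2.57 FPKM in libraries labelled Mga knockout, 1.97 and 1.69 FPKM in L3mbtl2 knockout and 3.01 and 2.48 FPKM in Pcgf6 knockout. Mga knockout replicate 1, the library with the highest fibroblast sum, was also the highest here. The difference was 0.60 ± 0.25 in libraries labelled Mga knockout (adjusted p = 0.0888), 0.28 (adjusted p = 0.112) without replicate 1 and 0.79 (adjusted p = 0.0278) without replicate 2. In Pcgf6 knockout it was 0.41 ± 0.28 (adjusted p = 0.405, and 0.0175 with a spread for each group), and in L3mbtl2 knockout -0.14 ± 0.28 (adjusted p = 0.713).

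Of the Id genes, Id3 and Id1 had the highest mean levels over the 10 libraries and Id4 the lowest. Id1 lies on chromosome 2 (ENSMUSG00000042745, 152736251 to 152737410). It was at 17.8, 19 and 20 FPKM in wild type, 54.0, 12.9 and 38.5 FPKM in libraries labelled Mga knockout, 22.3 and 21 FPKM in L3mbtl2 knockout and 33.8 and 32.8 FPKM in Pcgf6 knockout. Both Pcgf6 knockout libraries lay above every wild type and L3mbtl2 knockout library, and the libraries labelled Mga knockout lay on both sides of wild type. The difference in Pcgf6 knockout was 0.81 ± 0.48 (1.76-fold, adjusted p = 0.327), not past the threshold with 1 spread over all groups. With a spread for each group its adjusted p was 0.000865, with only the 5 libraries of the 2 groups 0.000105, and without Mga knockout replicate 2 it was 0.00431. In libraries labelled Mga knockout the difference was 0.66 ± 0.43 (adjusted p = 0.252). It was 1.26 (adjusted p = 0.000182) without replicate 2, whose Mga RNA was near the wild type level. It was 0.23 (adjusted p = 0.641) without replicate 1, whose fibroblast sum was the highest. In L3mbtl2 knockout it was 0.19 ± 0.48 (adjusted p = 0.778, and 0.0280 with only the 2 groups).

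Id2 (ENSMUSG00000020644, chromosome 12, 25093799 to 25097140) was at 14.8, 15.7 and 16.1 FPKM in wild type, 16.9, 4.75 and 9.24 FPKM in libraries labelled Mga knockout, 13.8 and 12.9 FPKM in L3mbtl2 knockout and 11.1 and 11.5 FPKM in Pcgf6 knockout. Both L3mbtl2 and both Pcgf6 knockout libraries lay below wild type, while the libraries labelled Mga knockout overlapped it. The difference was -0.77 ± 0.36 in libraries labelled Mga knockout (adjusted p = 0.122), -1.22 (adjusted p = 0.00489) without replicate 1 and -0.31 (adjusted p = 0.246) without replicate 2. In Pcgf6 knockout it was -0.45 ± 0.41 (adjusted p = 0.540, and 0.00968 with a spread for each group), and in L3mbtl2 knockout -0.22 ± 0.41 (adjusted p = 0.694, and 0.0118 with only the 2 groups). In Mga knockout replicate 1 the median gene of chromosome 12 stood 0.52 above wild type (log2), the library in which Id2 was highest.

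Id3 (ENSMUSG00000007872, chromosome 4, 136143497 to 136145755) varied least among groups of the Id genes. It was at 22.2, 23.8 and 27.8 FPKM in wild type, 36.3, 34.7 and 24.4 FPKM in libraries labelled Mga knockout, 23.8 and 25.6 FPKM in L3mbtl2 knockout and 25.8 and 28.5 FPKM in Pcgf6 knockout. All 3 knockouts overlapped wild type. The difference was 0.35 ± 0.15 in libraries labelled Mga knockout (adjusted p = 0.0989). It was 0.25 (adjusted p = 0.232) without replicate 1, 0.28 (0.191) without replicate 2 and 0.53 (0.00821) without replicate 3. The 95% interval of the difference was -0.38 to 0.40 in L3mbtl2 knockout and -0.24 to 0.54 in Pcgf6 knockout.

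Id4 (ENSMUSG00000021379, chromosome 13, 48261228 to 48266026), whose protein can also counter the other Id proteins, was at 3.05, 3.61 and 2.78 FPKM in wild type and 2.09, 4.98 and 2.21 FPKM in libraries labelled Mga knockout. It was at 1.22 and 1.57 FPKM in L3mbtl2 knockout and at 2.59 and 1.62 FPKM in Pcgf6 knockout. All 4 libraries of L3mbtl2 and Pcgf6 knockout lay below wild type. In L3mbtl2 knockout it fell 2.18-fold (log2 -1.12 ± 0.37, adjusted p = 0.0389). The call was lost without any 1 of the 3 wild type or 2 L3mbtl2 knockout libraries (adjusted p = 0.0702 to 0.200), with a pseudocount of 1 (0.0519) and with no filter on low values (0.0655). In Pcgf6 knockout the difference was -0.59 ± 0.37 (adjusted p = 0.361, and 0.0387 with a spread for each group) and in libraries labelled Mga knockout -0.13 ± 0.33 (adjusted p = 0.776). The latter was -0.52 (adjusted p = 0.0715) without replicate 2, whose Mga RNA was near the wild type level. It was 0.08 (adjusted p = 0.862) without replicate 1 and 0.05 (adjusted p = 0.938) without replicate 3.

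Within the summed level of the 4 Id genes, Id1 took 30.5% ± 0.378 in wild type (SD, n = 3), 35.4% ± 1.46 in L3mbtl2 knockout (n = 2) and 45.1% ± 1.43 in Pcgf6 knockout (n = 2). In the libraries labelled Mga knockout it took 49.4%, 22.4% and 51.8%. Id2 took 25.0% ± 0.797 in wild type, 12% ± 3.59 in libraries labelled Mga knockout, 21.9% ± 1.11 in L3mbtl2 knockout and 15.3% ± 0.234 in Pcgf6 knockout. Summed, the Id genes were at 62.2 ± 4.43 FPKM in wild type, 61.0 ± 0.0712 FPKM in L3mbtl2 knockout and 73.9 ± 0.842 FPKM in Pcgf6 knockout, and it was 109, 57.3 and 74.3 FPKM in replicates 1, 2 and 3 labelled Mga knockout. These shares and sums are descriptions with no test.

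Between knockouts, 2 of the 10 genes were called in each comparison. These were Bmp7 and Bmp2 between Mga and L3mbtl2 knockout, where 22.8% of all tested genes were called (10.9% higher and 12% lower in Mga knockout). Between Mga and Pcgf6 knockout they were Bmp4 and Bmpr1a, where 22.6% were called (12% higher and 10.6% lower in Mga knockout). Between L3mbtl2 and Pcgf6 knockout they were Bmp4 and Bmp7, both lower in L3mbtl2 knockout, where 30.5% of all tested genes were called (16.6% higher and 13.9% lower). With a spread for each group, Bmpr1a (log2 0.46, adjusted p = 0.000255), Smad6 (-0.56, 0.00332) and Id1 (-0.62, 0.00319) were called there as well. Libraries did not overlap for 5, 3 and 10 of the 10 genes in these comparisons, against 45.9%, 46.8% and 82.5% of all tested genes.

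Of 63 other genes of the pathway, listed by role, 62 were found and 46 were tested. Against wild type, 10 were higher and 3 lower in libraries labelled Mga knockout, 8 higher and 8 lower in L3mbtl2 knockout, and 1 higher and 3 lower in Pcgf6 knockout. These are 13, 16 and 4 of 46, against 39.5%, 40% and 10.1% of all tested genes called. The 3 lower in the first group were Nog, Skil and Fkbp1a, and those called in Pcgf6 knockout were Acvrl1, higher, and Fstl3, Smurf2 and Skil, lower, of which Nog and Fstl3 are named after their values were seen. The median log2 fold change of the list was 0.12, 0.03 and -0.06, against 0.10, 0.13 and 0.04 over all tested genes. None of the 4 other ligands tested was called against wild type in any knockout. One of them, Bmp6, is named after its values were seen. Its wild type levels were 0.989, 0.994 and 0.671 FPKM and those of Pcgf6 knockout 2.16 and 2.78 FPKM, a difference of 1.39 ± 0.39 (log2, adjusted p = 0.0594). It was lower in Mga knockout (log2 -1.64 ± 0.39, adjusted p = 0.0201) and in L3mbtl2 knockout (-2.46 ± 0.43, adjusted p = 0.00442) than in Pcgf6 knockout.

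Among receptors, Acvr2a, a type II receptor that activins and BMPs share, was at 2.46 FPKM on average in wild type, 4.56 FPKM in libraries labelled Mga knockout and 5.31 FPKM in L3mbtl2 knockout. It rose in both (log2 0.85 ± 0.12, adjusted p = 0.00119, and 1.08 ± 0.14, adjusted p = 0.000662) and was 0.18 ± 0.14 higher in Pcgf6 knockout (adjusted p = 0.447, and 0.0487 with a spread for each group). Bmpr2, the BMP type II receptor, rose from 2.09 to 5.19 FPKM in L3mbtl2 knockout (log2 1.28 ± 0.27, adjusted p = 0.00614). It lies on chromosome 1, whose median gene was 0.75 higher there, and less that median the difference was 0.53 (adjusted p = 0.152). In libraries labelled Mga knockout Bmpr2 differed by 0.55 ± 0.24 (adjusted p = 0.0959). That difference was 0.81 (adjusted p = 0.00611) without replicate 2, whose Mga RNA was near the wild type level. It was 0.30 (adjusted p = 0.216) without replicate 1. In Pcgf6 knockout Bmpr2 differed by 0.24 ± 0.27 (adjusted p = 0.626). Acvrl1, a type I receptor of endothelial cells, rose from 0.64 to 1.62 FPKM in Pcgf6 knockout (log2 1.22 ± 0.20, adjusted p = 0.00831). Without either Pcgf6 knockout library it was not called (adjusted p = 0.111 and 0.0915). The 5 endothelial markers summed to 17.6 to 17.8 FPKM in Pcgf6 knockout against 27.2 to 28.7 FPKM in wild type, but did not move together. Most of the sum was Pecam1 (14.3 and 14.8 FPKM against 20.2 to 21.5 FPKM), and Tek was lower too. Tie1, Cdh5 and Kdr, all under 1 FPKM, were higher in both Pcgf6 knockout libraries than in wild type. The part of these markers in the Acvrl1 result was not tested.

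The receptor-activated transducers Smad1 and Smad5 rose in the libraries labelled Mga knockout (log2 0.83 ± 0.15, adjusted p = 0.00292, and 0.59 ± 0.12, adjusted p = 0.00629). They also rose in L3mbtl2 knockout (log2 0.78 ± 0.16, adjusted p = 0.00617, and 0.54 ± 0.14, adjusted p = 0.0136). In L3mbtl2 knockout the Smad1 call was lost without replicate 1 (adjusted p = 0.0635), and that of Smad5 without either replicate (0.0622 and 0.103) and less its chromosome median (0.0863). In Pcgf6 knockout neither passed the threshold (adjusted p = 0.648 and 0.105). With a spread for each group Smad5 did there (log2 0.40, adjusted p = 0.00121), as it did with only the 2 groups (0.00443) and without Mga knockout replicate 2 (0.0114).

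Smad7, the inhibitory SMAD that acts on BMP and TGF-beta receptors alike, had higher levels in all 7 knockout libraries. It was at 10.4, 10.5 and 10.1 FPKM in wild type, 37.8, 14.6 and 19.4 FPKM in libraries labelled Mga knockout, 29.8 and 29.8 FPKM in L3mbtl2 knockout and 18.4 and 19.7 FPKM in Pcgf6 knockout. It rose in the first 2 knockouts (log2 1.09 ± 0.28, adjusted p = 0.0163, and 1.52 ± 0.32, adjusted p = 0.00614). The first of these calls was lost without wild type replicate 3 (adjusted p = 0.0519), and the difference was 0.70 (adjusted p = 0.00226) without Mga knockout replicate 1, the library with the highest fibroblast sum. In Pcgf6 knockout the difference was 0.87 ± 0.32 (adjusted p = 0.119, and 5.5e-05 with a spread for each group). Skil, a SMAD corepressor, fell from 13.5 FPKM in wild type to 6.98, 7.44 and 9.37 FPKM on average in Mga, L3mbtl2 and Pcgf6 knockout (log2 -0.95 ± 0.10, -0.85 ± 0.12 and -0.52 ± 0.12, adjusted p = 0.000326, 0.000902 and 0.0262). In Pcgf6 knockout that call was lost without any 1 wild type, L3mbtl2 knockout or Pcgf6 knockout library (adjusted p up to 0.191).

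Among the other inhibitors, Tob1 rose in L3mbtl2 knockout (log2 1.18 ± 0.13, adjusted p = 0.000375). In Pcgf6 knockout Tob1 differed by 0.37 ± 0.13 (adjusted p = 0.116, and 0.000287 with a spread for each group). Smurf2, a ubiquitin ligase for SMADs and receptors, fell in Pcgf6 knockout (log2 -0.70 ± 0.12, adjusted p = 0.00935). The Smurf2 call was lost less the chromosome median (adjusted p = 0.0825) and without either Pcgf6 knockout library (0.0905 and 0.105). Fkbp1a, which binds type I receptors, fell in Mga and L3mbtl2 knockout (log2 -0.38 ± 0.07, adjusted p = 0.00431, and -0.36 ± 0.08, adjusted p = 0.00832). In L3mbtl2 knockout its call was lost without either library (adjusted p = 0.0570 and 0.0696). Of the known targets, the transcription factors Tfap2a and Gata2 rose in libraries labelled Mga knockout (log2 2.01 ± 0.19, adjusted p = 0.000176, and 1.33 ± 0.25, adjusted p = 0.00371). Tfap2a was at 2.03, 1.78 and 2.19 FPKM there against 0.39, 0.42 and 0.46 FPKM in wild type, so replicate 2 stood with the others. Both were also higher there than in L3mbtl2 and in Pcgf6 knockout at the same threshold. Neither passed the threshold against wild type in the other knockouts, and Gata2 in L3mbtl2 knockout was at -0.78 ± 0.28 (adjusted p = 0.0516). It was called lower there in 9 of the 20 alternatives, with an adjusted p of 0.000821 with a spread for each group and 0.0258 with median-of-ratios scaling. Of 7 targets tested, 4 rose in libraries labelled Mga knockout (Tfap2a, Gata2, Msx1 and Msx2), against 22.8% of all tested genes. In L3mbtl2 knockout 0 rose and 1 fell (Hey1), where 23.4% of all tested genes were higher and 16.7% lower. In Pcgf6 knockout 0 were called, where 10.1% of all tested genes were. Msx1, Msx2 and Hey1 are named after their values were seen.

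**Figure D4:**
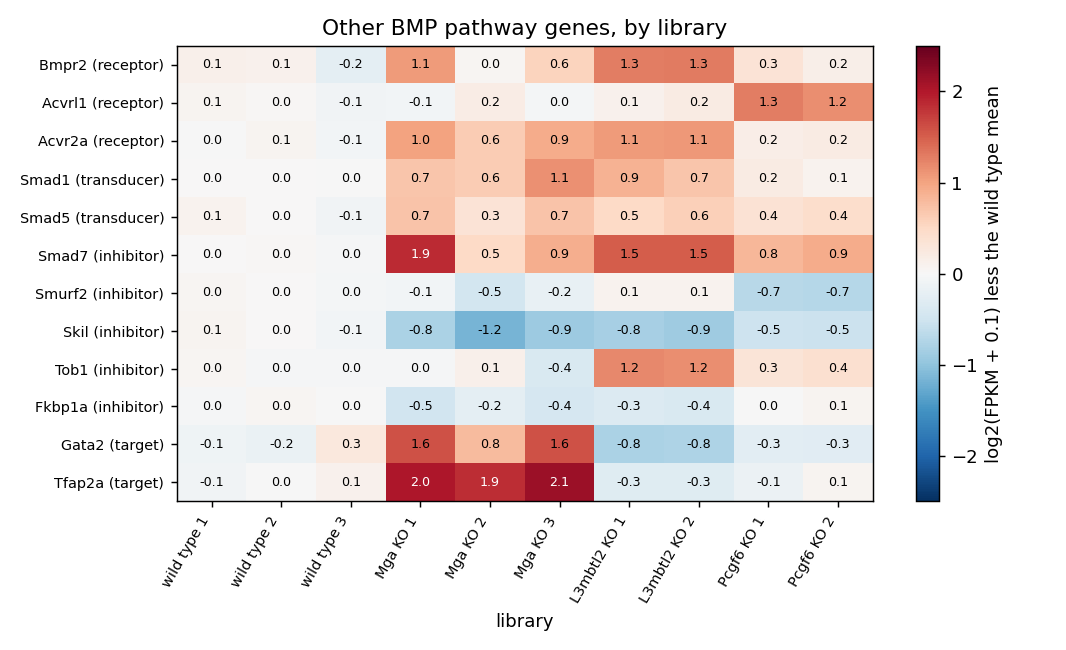
Log2(FPKM + 0.1) less the wild type mean (colour and printed value) for the 12 other pathway genes with the smallest adjusted p, with genes and their roles in rows and the 10 libraries in columns. Skil lies below wild type in all 7 knockout libraries, and Tfap2a and Gata2 lie above it in the 3 libraries labelled Mga knockout.

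The genes whose pattern over the 10 libraries was most like that of the leading gene of each class were found by Pearson correlation of log2(FPKM + 0.1) over 15670 genes. These libraries fall into genotypes, so the correlations mostly restate differences between groups and carry no test. For Bmp4 they were Abtb1 (r = 0.959), Mymx (0.946) and Ebp (0.940). Mymx stood at 9.21 to 10.6 FPKM in wild type and 81.4 and 82.9 FPKM in Pcgf6 knockout. For Bmpr1a they were Tbcel (0.987), Golga1 (0.985) and Cd55 (0.979). For Id3 they were Zfp428 (0.897), Mir145a (0.886) and Alkbh1 (0.882), and Mir145a was listed at 0 in 7 of the 10 libraries. Among the 10 genes themselves, the highest correlations were Bmp8b with Id2 (0.861) and Smad6 with Id1 (0.759), and the lowest was Bmp4 with Bmp8b (-0.602).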

How the data were processed

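RNA libraries were made with a NEBNext Ultra kit that does not mark strand, per the labels' protocols. The authors deposited 1 FPKM value for each gene and library. The submitters' processing notes name Bowtie2 2.2.3, TopHat2 2.0.12, HTSeq 0.6.0 and GRCm38, with no annotation release named. At 77.9% of the 28713 genes above 0, FPKM came out as whole reads (within 0.005 read) on GENCODE M21 exon lengths, which gave the depths. Bmp4, Id2 and Id4 did so at lengths of 2224, 2540 and 3320 bases, the nearest to their M21 lengths. Those of Id2 and Id4 are not unique: their recovered reads were even in every library, so shorter lengths give whole reads too. Reads are not independent molecules.

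Values were tested with limma 3.58.1 (R 4.3.3) on log2(FPKM + 0.1), with all 10 libraries in 1 fit, group as the only term and a variance prior that follows the mean, for genes that reached 0.5 FPKM in 2 or more libraries. The 0.1 FPKM added before the log2 understates changes of low genes. The threshold was an adjusted p of 0.05 over all 15731 genes. The 10 genes and the lists were chosen with earlier results of these data known. All 10 genes are named, and of the pathway list the 12 with the smallest adjusted p. Bmp6, Bmp8a, Nog, Fstl3, Msx1, Msx2 and Hey1 of that list were named in addition, after their values were seen. The rest of the list is given as counts. Promoter windows were searched in the 250 bases before the start only. The 20 alternatives changed the pseudocount, filter, scaling, spread, libraries, replicate block or chromosome median.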

Additional observations from a re-analysis of the deposited data

How the results depend on the processing

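Over 60 results (10 genes in 6 comparisons) and 20 alternatives, 1193 values were computed: 1110 stayed on their side of the threshold, 27 lost a call, 55 gained one and 1 was called with the other sign. Of the 1110, 16 values that were not called changed sign. The call with the other sign was Id1 between Mga and Pcgf6 knockout, 0.45 (log2, adjusted p = 0.0362) without Mga knockout replicate 2, against -0.16 with it, and leaving out 1 library gave -0.58 to 0.45. The cause of these changes was not tested.

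Counts of the 10 genes called changed as follows. Against wild type, Mga knockout (4) gave 1 with only the 2 groups. L3mbtl2 knockout (3) gave 5 with a spread per group and 7 with only the 2 groups, and Pcgf6 knockout (1) gave 2 with a pseudocount of 1, 7 with a spread per group and 6 with only the 2 groups. Mga against L3mbtl2 knockout (2) gave 1 with a filter of 2 FPKM, with a spread per group, with only the 2 groups and with the replicate block. Mga against Pcgf6 knockout (2) gave 1 with only the 2 groups, and L3mbtl2 against Pcgf6 knockout (2) gave 5 with a spread per group and 6 with only the 2 groups. Leaving out 1 library gave 2 to 6, 2 to 5, 1 to 3, 1 to 6, 1 to 3 and 2 to 4, in the order Mga, L3mbtl2 and Pcgf6 knockout against wild type, Mga against L3mbtl2, Mga against Pcgf6, and L3mbtl2 against Pcgf6 knockout.

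Counts over all tested genes, with a spread per group and then with only the 2 groups, were 3709 and 4054 for Mga (6210), 11110 and 10525 for L3mbtl2 (6297) and 7503 and 7096 for Pcgf6 knockout (1584) against wild type. With only the 2 groups Mga against L3mbtl2 knockout (3591) gave 634. With a spread per group and only the 2 groups, Mga against Pcgf6 knockout (3550) gave 2283 and 231, and L3mbtl2 against Pcgf6 knockout (4803) gave 10429 and 9809. Leaving out 1 library gave 4198 to 8647, 2829 to 8515, 154 to 3975, 1098 to 5862, 772 to 6983 and 1635 to 7359, in the same order. The lowest for Pcgf6 knockout against wild type was without Pcgf6 knockout replicate 2, and the highest without Mga knockout replicate 2.

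Same-numbered libraries did not deviate together (correlations of -0.0196 to 0.0349, all under 0.1), so the numbers do not pair the samples. With the replicate block, Pcgf6 knockout against wild type gave 992 genes, Bmp2 between Mga and L3mbtl2 knockout was -1.14 (adjusted p = 0.0568) and Skil in Pcgf6 knockout was no longer called (0.0548). Median-of-ratios or upper-quartile scaling lowered the median of all genes by up to 0.11 (log2) in the comparisons with wild type, and the share of called genes that were higher went from 57.8% to 48.1% and 46.5% in Mga knockout and from 58.4% to 47.6% and 47.7% in L3mbtl2 knockout. Upper-quartile scaling gave 39.8% in place of 53.2% between Mga and Pcgf6 knockout and 43.6% in place of 54.5% between L3mbtl2 and Pcgf6 knockout. Bmp2, with as few as 13 reads in a library, is the gene that depth limits most, and it left the test under a filter of 2 FPKM.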
